A study of Mus musculus with 62 samples.

Results

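The 33 genes described here mark the oligodendrocyte lineage and myelin of the mouse brain, and were taken by symbol from the gene count table, where all 33 of 33 were found among 56415 genes. They comprised 1 precursor gene (Pdgfra), 5 lineage factors (Sox10, Olig1, Olig2, Myrf and Nkx6-2), 5 genes of maturing cells (Gpr17, Enpp6, Bcas1, Tspan2 and Lpar1), 9 myelin structural genes (Mbp, Mog, Mag, Mobp, Cnp, Cldn11, Mal, Opalin and Ermn), 4 enzymes of myelin lipids and acetate supply (Ugt8a, Gal3st1, Fa2h and Aspa), 2 gap junction genes (Gjb1 and Gjc3) and 7 other genes of mature cells (Trf, Plekhh1, Qdpr, Hapln2, Ndrg1, Gsn and Car2). The rule matched symbols and used no measured value, but the genes were chosen with earlier results of these data known.

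Polyadenylated RNA was sequenced from 5 regions of adult male C57BL/6J mice aged 8 to 10 weeks, namely the cortex (CTX), the dorsal and ventral parts of the hippocampus (dHPC and vHPC) and the dorsal and ventral parts of the striatum (DS and VS). The mice were injected i.p. with ethanol at 2 g/kg, as 20% ethanol in saline, or with the same volume of saline, and brains were taken 4 h after the final dose. Groups were acute saline (AP) and acute ethanol (AE), with 1 day of injection, and chronic saline (CP) and chronic ethanol (CE), with 1 injection on each of 10 days. Each condition was represented in every region by 3 libraries, except for 4 in AE dHPC and in CE DS, which gave 62 libraries. The mice carried no transgene, and regions were cored from slices of frozen brain. A mouse contributed to several regions, so regions are not independent of one another, and the neighbouring white matter and cell types that a core took in cannot be told apart from the region itself. Libraries held 8149628 to 71164766 counts, with 43173748 or more in every CTX and dHPC library, and each member had at least 44 counts in every library other than CP DS replicate 2, in which chromosomes 7, 8, 9, X, Y and MT had no counts. That library was left out of every value and test below, so chronic DS compares 2 CP with 4 CE libraries. CTX and dHPC libraries (batch 1) were made with a kit that keeps no strand, and vHPC, DS and VS libraries (batch 2) with a directional one, so region and batch cannot be fully told apart, while each comparison of ethanol with saline lay within 1 region and 1 batch.

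Oligodendrocytes arise from dividing precursors that carry the PDGF receptor alpha, pass through a short premyelinating state marked by Gpr17 and Enpp6, and end as myelinating cells that wrap axons in a membrane rich in galactolipid, proteolipid and myelin basic protein. Sox10 and Olig2 act throughout the lineage and Myrf drives the myelin genes. Myelin transcripts are most abundant in white matter, which borders or crosses all of these regions, and Ugt8a, the ceramide galactosyltransferase, makes the galactosylceramide that myelin lipids are built on. In tissue RNA of this kind, fewer oligodendrocytes and less of their RNA per cell cannot be told apart.

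The promoters below are those of some structural genes, of the lipid enzyme that was called in the dHPC and DS and of the precursor gene that was called in none. Each is the 250 bases before the start site in RefSeq, on build GRCm38.p6, 5′ to 3′ on the strand of the gene. Capitals mark ACAAAG, a core of SOX factor sites, and CTGGCAC, a core attributed to MYRF, on either strand.
Cnp, chr11:100574689-100574938, plus strand: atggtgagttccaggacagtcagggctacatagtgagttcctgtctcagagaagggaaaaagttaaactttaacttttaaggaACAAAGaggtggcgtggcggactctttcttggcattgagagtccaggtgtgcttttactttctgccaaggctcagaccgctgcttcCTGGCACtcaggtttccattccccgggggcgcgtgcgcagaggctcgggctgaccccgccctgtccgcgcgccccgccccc
Mag, chr7:30914864-30915113, minus strand: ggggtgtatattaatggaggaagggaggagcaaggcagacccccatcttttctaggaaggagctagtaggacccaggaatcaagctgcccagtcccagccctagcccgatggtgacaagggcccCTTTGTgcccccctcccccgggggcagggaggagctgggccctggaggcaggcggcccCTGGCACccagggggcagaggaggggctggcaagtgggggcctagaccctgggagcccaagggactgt
Mobp, chr9:120149492-120149741, plus strand: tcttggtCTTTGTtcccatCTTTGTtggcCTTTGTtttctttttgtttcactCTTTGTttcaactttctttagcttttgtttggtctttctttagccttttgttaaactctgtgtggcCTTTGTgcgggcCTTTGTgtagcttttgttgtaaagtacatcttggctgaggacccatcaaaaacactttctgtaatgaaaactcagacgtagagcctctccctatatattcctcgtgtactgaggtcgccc
Opalin, chr19:41077114-41077363, minus strand: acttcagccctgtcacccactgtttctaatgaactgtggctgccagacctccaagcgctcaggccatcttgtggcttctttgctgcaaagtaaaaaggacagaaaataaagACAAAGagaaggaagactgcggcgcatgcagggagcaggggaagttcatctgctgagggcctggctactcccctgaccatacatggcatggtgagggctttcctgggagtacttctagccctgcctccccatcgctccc
Ugt8a, chr3:125938653-125938902, minus strand: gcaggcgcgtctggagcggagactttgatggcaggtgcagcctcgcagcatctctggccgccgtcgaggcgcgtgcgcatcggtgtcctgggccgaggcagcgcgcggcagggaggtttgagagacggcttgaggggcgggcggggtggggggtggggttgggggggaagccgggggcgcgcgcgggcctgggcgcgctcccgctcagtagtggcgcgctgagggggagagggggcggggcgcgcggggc
Pdgfra, chr5:75152001-75152250, plus strand: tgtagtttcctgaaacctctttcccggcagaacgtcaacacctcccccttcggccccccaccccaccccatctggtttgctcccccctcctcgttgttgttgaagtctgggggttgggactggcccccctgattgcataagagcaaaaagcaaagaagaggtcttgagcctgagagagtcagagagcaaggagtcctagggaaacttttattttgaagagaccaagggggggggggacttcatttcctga

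The table of promoters held 35 start sites of 23 of the 33 members. ACAAAG or its reverse complement CTTTGT occurred before 10 of the 35 start sites, beside 16.5% of all 32851 promoters. These belonged to 7 members (Cnp, Gjb1, Lpar1, Mag, Mobp, Opalin and Tspan2), and Mobp held 6 copies. CTGGCAC or GTGCCAG occurred before 5 of the 35 (Cnp, Hapln2, Lpar1 and Mag), beside 4.19% of all promoters. The TATA box TATAAA, or TTTATA, occurred before 3 of 35 (Aspa, Gjb1 and Olig2), beside 12.4% of all. The E-box CAGCTG, its own reverse complement, occurred before 4 of 35 (Aspa, Gsn and Hapln2), beside 13.0% of all. None of these 4 strings lay in the windows shown for Ugt8a and Pdgfra. The structural genes shown were the structural members found with ACAAAG, so this difference was set by the choice of windows. No 2 of the strings overlapped in the windows shown.

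In saline mice the members spanned a wide range per kb of exon, with the same gene at either end in all 5 regions. Mbp, which encodes myelin basic protein, was the most abundant, at a median of 113.1 CPM (counts scaled to a library of 1000000) per kb in the CTX, 223 in the vHPC, 271 in the VS, 423 in the dHPC and 429 in the DS. Mobp, another component of the compact myelin sheath, came next in every region but the CTX, where Qdpr lay between them. Enpp6, a choline phosphodiesterase of newly formed oligodendrocytes, was the least abundant member, with medians of 0.49 in the CTX and 2.68 CPM per kb in the DS. Pdgfra varied far less between regions, from 3.49 to 4.95 CPM per kb. Each region was normalised by itself, and the regions fell in 2 batches, so these levels were not tested between regions.

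**Figure D1:**
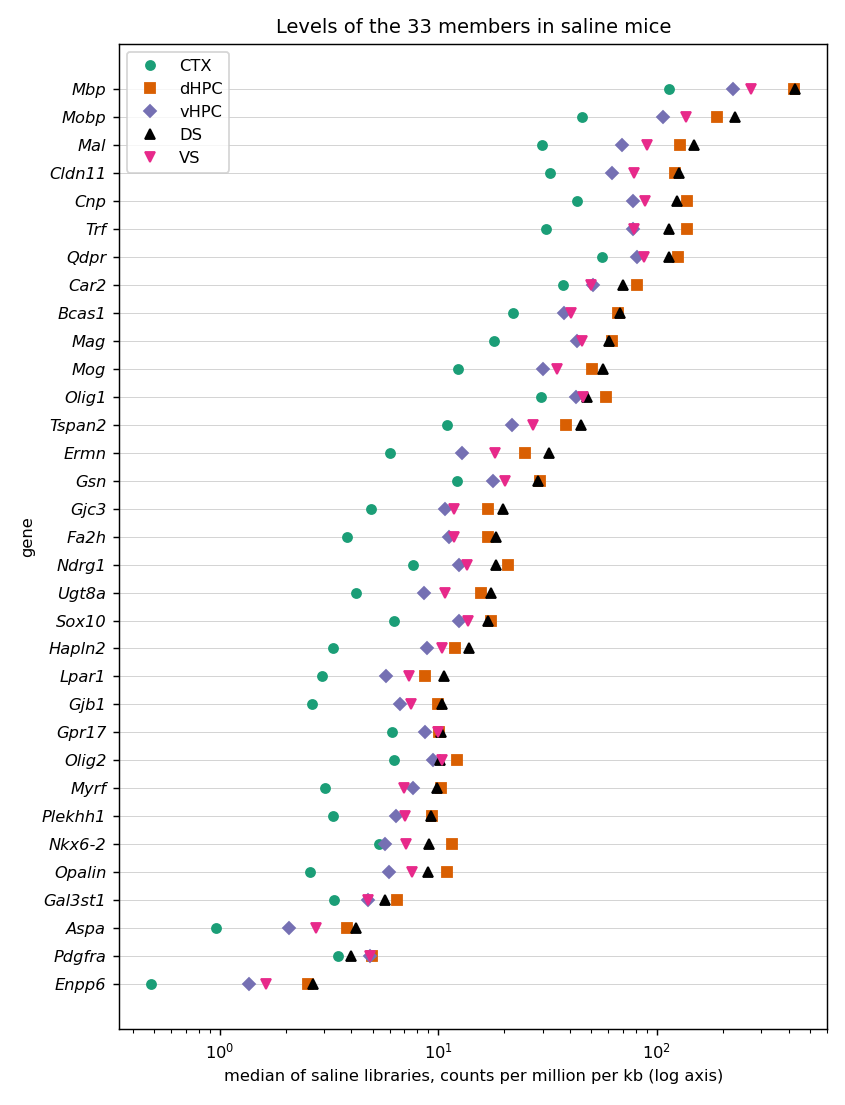
Median level of each of the 33 genes over the saline libraries of a region, in CPM per kb of exon on a log axis, with 1 symbol per region (5 libraries in the DS, 6 in each other region). The CTX symbols lie left of those of the other regions for Mbp, Mobp, Mal and most other myelin genes, whereas the 5 symbols of Pdgfra lie close together, between 3.49 and 4.95.

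Each region and paradigm was tested by itself for a difference between ethanol and saline libraries, with the edgeR quasi-likelihood test over all expressed genes, and a member was called at a false discovery rate (FDR) below 0.1. DESeq2 was run as the alternative. The 33 members passed the filter on low counts in all 15 tests. Across the 10 comparisons of ethanol with saline, 14 calls were made by edgeR, 9 in the acute CTX, 1 in the acute dHPC and 4 in the acute DS, and none in the other 7 comparisons. Replicates are named by mouse number within a condition, and values are listed in that order. In the CTX these were AP 2, 4 and 6, AE 2, 4 and 5, CP 3, 5 and 6 and CE 1, 5 and 6. In the dHPC they were AP 2, 4 and 5, AE 2, 3, 4 and 5, CP 2, 5 and 6 and CE 1, 4 and 6. In the vHPC they were AP 2, 4 and 6, AE 3, 4 and 5, CP 2, 3 and 6 and CE 4, 5 and 6. The DS had AP 2, 4 and 6, AE 3, 4 and 5, CP 3 and 6 and CE 1, 4, 5 and 6, and the VS AP 2, 4 and 6, AE 2, 3 and 5, CP 3, 5 and 6 and CE 1, 4 and 6.

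**Figure D2:**
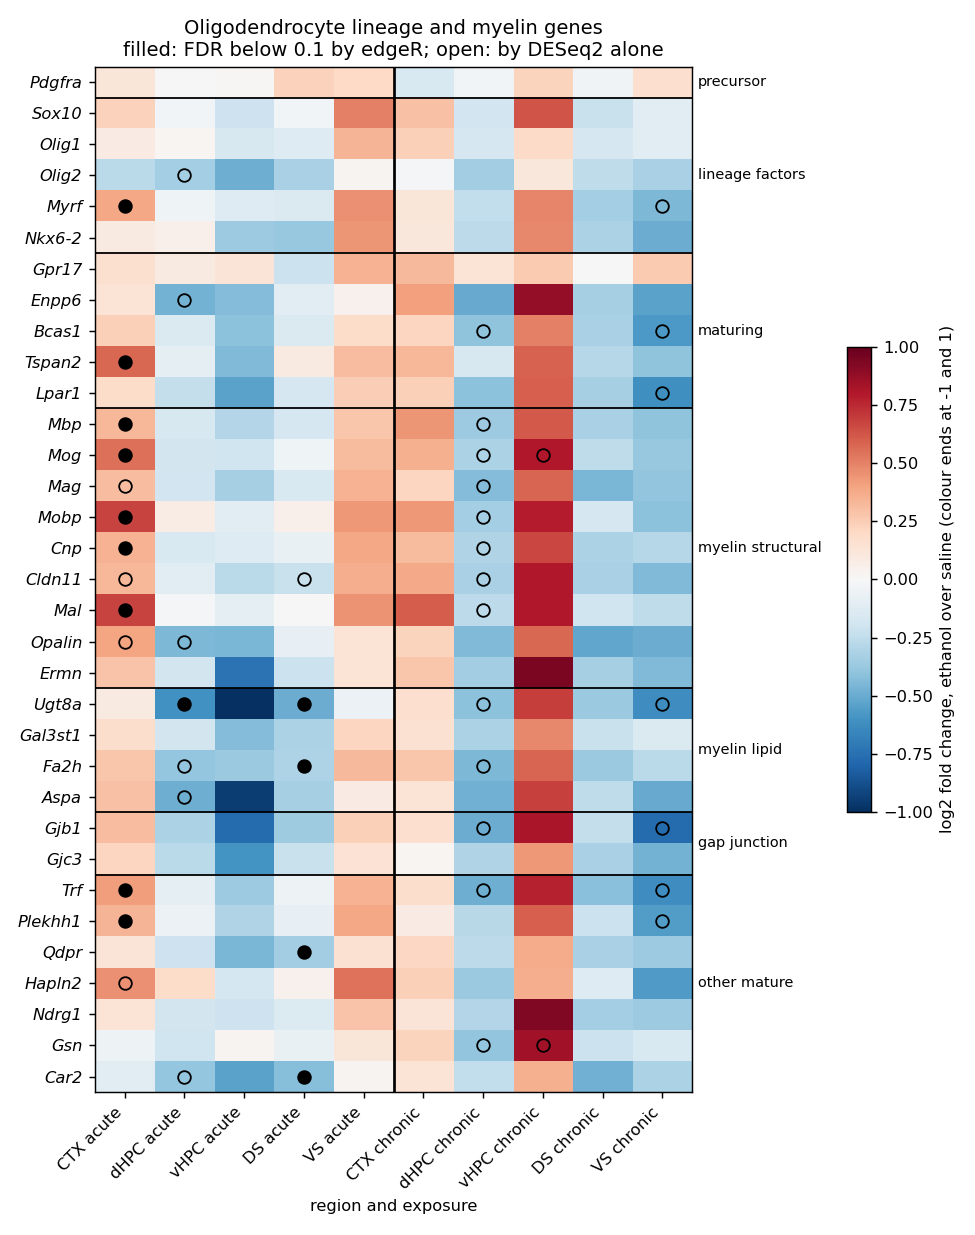
Log2 fold change of ethanol over saline for the 33 members (rows, by role) in 10 comparisons (columns, acute on the left), with colour from blue (lower with ethanol) to red (higher). Filled circles mark an edgeR FDR below 0.1 and open circles a DESeq2 FDR below 0.1 alone. The CTX acute column holds 9 filled circles, all on red cells, and the DS acute column 4, all on blue cells.

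In the CTX, a single dose of ethanol was followed by higher levels of myelin transcripts. By edgeR, 9 of 33 members rose (Myrf, Tspan2, Mbp, Mog, Mobp, Cnp, Mal, Trf and Plekhh1) and none fell, beside 0.818% of all 25905 genes that rose. These were 5 of the 9 structural genes, 1 of the 5 lineage factors, 1 of the 5 genes of maturing cells and 2 of the 7 other genes of mature cells, and no lipid enzyme, gap junction or precursor gene. DESeq2 called 13 members, all higher, beside 1.48% of all genes. The median log2 fold change was 0.28 over the members, of which 30 were higher, against 0.0024 over all genes tested. In 12 of 33 members every AE library lay above every AP library, as in 8.85% of all genes.

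Mal, a proteolipid of myelin rafts, was at 84.7, 81.1 and 89.3 CPM in AP and 135, 162 and 110.2 in AE (log2 fold change 0.67 ± 0.10 SE, edgeR FDR 0.0151). Mobp was at 308, 269 and 311 CPM in AP and 494, 549 and 372 in AE (log2 fold change 0.67 ± 0.11 SE, edgeR FDR 0.0173). Mog, on the outer face of the sheath, was at 21.3, 19.4 and 20.7 CPM in AP and 30.5, 32.2 and 27.2 in AE (log2 fold change 0.55 ± 0.08 SE, edgeR FDR 0.0108). In all 3 genes the groups did not overlap, with AE replicate 5 the lowest of the ethanol libraries.

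Tspan2, a tetraspanin of differentiating cells, was at 51.8, 48.6 and 52.9 CPM in AP and 72.1, 91.6 and 65.2 in AE (log2 fold change 0.58 ± 0.10 SE, edgeR FDR 0.0218). Myrf was at 25.5, 23.9 and 27.2 CPM in AP and 34.2, 35.95 and 29.97 in AE (log2 fold change 0.39 ± 0.08 SE, edgeR FDR 0.0493). Cnp, the cyclic nucleotide phosphodiesterase of noncompact myelin, was at 159, 155 and 153 CPM in AP and 202, 227 and 167 in AE (log2 fold change 0.35 ± 0.08 SE, edgeR FDR 0.0779). The groups did not overlap in these genes either.

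Plekhh1 was at 22.3, 20.97 and 21.8 CPM in AP and 29.02, 28.6 and 24.5 in AE (log2 fold change 0.34 ± 0.08 SE, edgeR FDR 0.0727). Trf, which encodes transferrin, was at 109, 91.9 and 96.5 CPM in AP and 153, 139 and 107 in AE (log2 fold change 0.42 ± 0.11 SE, edgeR FDR 0.0917). Mbp was at 983, 874 and 949.9 CPM in AP and 1294, 1256 and 978 in AE (log2 fold change 0.33 ± 0.08 SE, edgeR FDR 0.0955). For Trf, AE replicate 5 lay below AP replicate 2, and for Mbp it lay just under the same library, so both groups overlapped.

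Members called by DESeq2 alone were also higher with ethanol. Mag, an adhesion molecule of the inner myelin membrane, was at 76.4, 70.2 and 68.4 CPM in AP and 96.7, 95.4 and 74.8 in AE (log2 fold change 0.31 ± 0.09 SE, DESeq2 FDR 0.025, edgeR FDR 0.127). Cldn11, of myelin tight junctions, was at 61.9, 59.8 and 63.5 CPM in AP and 86.1, 83.8 and 63.7 in AE (log2 fold change 0.33 ± 0.09 SE, DESeq2 FDR 0.0203, edgeR FDR 0.124). Opalin, a membrane glycoprotein of oligodendrocytes, was at 8.005, 7.203 and 6.39 CPM in AP and 8.498, 10.8 and 9.03 in AE (log2 fold change 0.39 ± 0.12 SE, DESeq2 FDR 0.0711, edgeR FDR 0.161). The AE and AP groups of Mag overlapped. Hapln2, which links hyaluronan at nodes of Ranvier and was the remaining DESeq2 call, had a log2 fold change of 0.46.

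The CTX count rested on few libraries. It was 3 without AP replicate 4, 3 without AE replicate 4, 4 without AP replicate 2 and 5 without AP replicate 6. The share of all genes called fell as well, to between 0.165% and 1.42% in these fits, from 1.99% with no library left out. Without AE replicate 5 the count rose to 12, beside 0.558% of all genes. Mog and Mal were called in all 6 fits that left out 1 library. The CTX count was 0 when the 4 CTX groups were fitted together, where 0.00% of all genes were called.

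**Figure D3:**
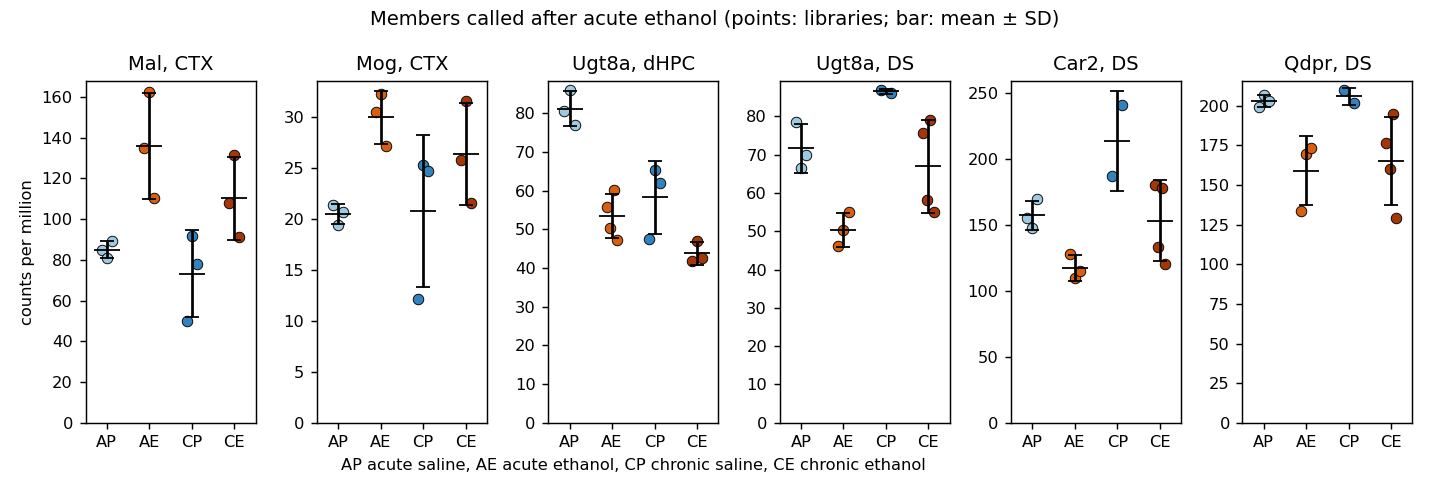
CPM in each library (points) with the group mean and SD (bar) for 6 gene and region pairs with an edgeR FDR below 0.1 after acute ethanol, with the y axes starting at 0. Mal and Mog in the CTX are higher in the 3 AE than the 3 AP libraries, whereas Ugt8a in the dHPC and DS, and Car2 and Qdpr in the DS, are lower in every AE than every AP library.

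In the DS, acute ethanol was followed by lower levels of lipid and metabolic enzymes of oligodendrocytes, and edgeR called no structural gene of the sheath. By edgeR, 4 of 33 members fell (Ugt8a, Car2, Qdpr and Fa2h) and none rose, beside 3.10% of all 20495 genes that fell. These were 2 of the 4 lipid enzymes and 2 of the 7 other genes of mature cells. DESeq2 called 5 members, all lower, beside 3.70%. The 33 members had a median of -0.15, the 9 structural genes -0.083 and the 4 lipid enzymes -0.32, against 0.0038 over all genes. Further precursor genes were lower as well, as given below. The pallial excitatory neuron list also differed between the groups, at 362, 388 and 462 CPM in AP and 23.4, 97.1 and 14.2 in AE. Its part in the result was not tested.

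Ugt8a was at 78.7, 66.4 and 69.8 CPM in AP and 46.1, 50.3 and 54.96 in AE (log2 fold change -0.50 ± 0.09 SE, edgeR FDR 0.00716). Car2, carbonic anhydrase 2, was at 155, 148 and 169.5 CPM in AP and 128, 109 and 115 in AE (log2 fold change -0.42 ± 0.08 SE, edgeR FDR 0.00865). Every AE library was below every AP library in both, and both calls held in all 6 fits that left out 1 library.

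Qdpr, a pterin reductase, was at 199, 207 and 203 CPM in AP and 134, 169.6 and 174 in AE (log2 fold change -0.35 ± 0.09 SE, edgeR FDR 0.0479). Fa2h, which hydroxylates the fatty acids of myelin galactolipids, was at 48.9, 53.00 and 55.3 CPM in AP and 42.2, 38.8 and 46.01 in AE (log2 fold change -0.30 ± 0.09 SE, edgeR FDR 0.0893). Cldn11, called by DESeq2 alone, was at 231, 215 and 237 CPM in AP and 172, 212 and 203 in AE (log2 fold change -0.22 ± 0.08 SE, DESeq2 FDR 0.0993, edgeR FDR 0.185). The groups did not overlap in these 3 genes, as in 12 members in all that were lower in every AE library, beside 10.9% of all genes.

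The DS count was 2 without AP replicate 6 and 2 without AE replicate 3, beside 3.38% and 3.45% of all genes. With the 4 DS groups, all but CP replicate 2, fitted together, the count was 0, beside 1.34% of all genes.

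In the dHPC, Ugt8a was the 1 member that fell after acute ethanol by edgeR, beside 0.0153% of all 26215 genes. DESeq2 called 7 members, all lower, beside 0.534% of all genes: Olig2, Enpp6, Opalin, Ugt8a, Fa2h, Aspa and Car2. The median of the 4 lipid enzymes was -0.44 and that of the 9 structural genes -0.16, with -0.18 over the 33 members and -0.0010 over all genes. The striatal projection neuron list was also lower in most AE libraries, at 958, 721 and 596 CPM in AP and 441, 333, 638 and 319.9 in AE, with 9 of 9 genes lower and none called, and its part in the result was not tested.

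Ugt8a was at 80.6, 86.1 and 77.01 CPM in AP and 55.7, 50.4, 60.2 and 47.4 in AE (log2 fold change -0.61 ± 0.08 SE, DESeq2 FDR 1.98e-07, edgeR FDR 0.0956). Aspa, the aspartoacylase that frees acetate from N-acetylaspartate, was at 22.9, 25.99 and 25.1 CPM in AP and 16.7, 16.6, 19.96 and 17.03 in AE (log2 fold change -0.49 ± 0.08 SE, DESeq2 FDR 0.000133, edgeR FDR 0.143). Fa2h was at 53.03, 63.6 and 58.7 CPM in AP and 42.7, 44.8, 47.4 and 44.6 in AE (log2 fold change -0.38 ± 0.07 SE, DESeq2 FDR 0.000746, edgeR FDR 0.165). In these 3 genes each of the 4 AE libraries lay below the 3 AP libraries.

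Car2 was at 199.8, 213 and 225 CPM in AP and 185, 158, 160.2 and 149.6 in AE (log2 fold change -0.38 ± 0.07 SE, DESeq2 FDR 0.00135, edgeR FDR 0.184). Enpp6 was at 16.9, 20.7 and 17.1 CPM in AP and 12.5, 11.9, 15.5 and 12.7 in AE (log2 fold change -0.47 ± 0.11 SE, DESeq2 FDR 0.0147, edgeR FDR 0.269). Olig2, the basic helix-loop-helix factor of the lineage, was at 32.6, 32.02 and 28.6 CPM in AP and 24.2, 25.4, 23.1 and 25.6 in AE (log2 fold change -0.34 ± 0.07 SE, DESeq2 FDR 0.00672, edgeR FDR 0.198). These groups did not overlap either.

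Opalin was at 31.4, 33.3 and 35.8 CPM in AP and 18.7, 21.6, 29.96 and 27.8 in AE (log2 fold change -0.45 ± 0.14 SE, DESeq2 FDR 0.09998, edgeR FDR 0.445), with AE replicate 4 the closest to the saline libraries. The edgeR call of Ugt8a held in 2 of the 7 fits that left out 1 library, and the DESeq2 calls of the others stand beside edgeR FDRs from 0.143 to 0.445. Without AE replicate 4 edgeR called 5 members, beside 0.324% of all genes. The count was 0 without any 1 of the 3 AP libraries, without AE replicate 3 and without AE replicate 5. In these fits at most 0.00388% of all genes were called.

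In the VS and vHPC no member was called after acute ethanol by either tool, where edgeR called 0.0399% and 0.00% of all genes and DESeq2 0.889% and 2.90%. In the VS, 32 of 33 members were higher, with a median of 0.29 against 0.0050 over all genes, and 12 had an unadjusted edgeR p under 0.05, all higher, beside 3.23% of all genes. AE replicate 2 of the VS lay near the saline libraries, and without it edgeR called 13 members, beside 1.48% of all genes. In the vHPC, 30 members were lower, with a median of -0.36, against -0.0045 over all genes, and 1 had an unadjusted p under 0.05, beside 5.67% of all genes in that direction. The vHPC median turned on the saline libraries: it was -0.0076 without AP replicate 2 and -0.73 without AP replicate 6, and 2 members were called in the latter fit, beside 1.54% of all genes. The choroid plexus list varied with the same libraries, at 2404, 481 and 102 CPM in AP and 566, 1989 and 78.9 in AE, and AE replicate 4 held 1214 CPM of the striatal projection neuron list where the other 5 libraries held 209.8 to 448. The part of either list was not tested.

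After 10 days of ethanol, edgeR called no member in any region, and it called 0.0555% of all genes in the vHPC and 0.00% in each of the other 4. In the dHPC, 32 of 33 members were lower, with Gpr17 the exception, and 27 had an unadjusted edgeR p under 0.05, all lower, beside 4.75% of all genes. DESeq2 called 13 members, all lower, beside 0.431% of all 25958 genes. In 22 members every CE library lay below every CP library, beside 7.18% of all genes, and this held for all 9 structural genes.

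Trf was at 415, 436 and 375 CPM in CP and 291, 317 and 263 in CE (log2 fold change -0.49 ± 0.09 SE, DESeq2 FDR 0.000333, edgeR FDR 0.566). Mag was at 206, 246 and 239.6 CPM in CP and 176, 174 and 161 in CE (log2 fold change -0.44 ± 0.08 SE, DESeq2 FDR 0.0017, edgeR FDR 0.566). Fa2h was at 39.96, 48.3 and 45.1 CPM in CP and 34.4, 31.6 and 31.6 in CE (log2 fold change -0.45 ± 0.08 SE, DESeq2 FDR 0.00494, edgeR FDR 0.566). The ethanol libraries were the lower 3 of 6 in each gene.

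Gsn, the actin-severing protein gelsolin, was at 78.6, 90.2 and 78.5 CPM in CP and 58.5, 67.4 and 62.03 in CE (log2 fold change -0.39 ± 0.08 SE, DESeq2 FDR 0.00904, edgeR FDR 0.566). Mobp was at 1153, 1263 and 1131 CPM in CP and 976, 933 and 878 in CE (log2 fold change -0.34 ± 0.07 SE, DESeq2 FDR 0.00381, edgeR FDR 0.566). Bcas1, which marks oligodendrocytes in early myelination, was at 209, 243 and 227 CPM in CP and 187, 169 and 155 in CE (log2 fold change -0.40 ± 0.09 SE, DESeq2 FDR 0.00881, edgeR FDR 0.566). CE replicate 6 was the lowest library for Mobp and Bcas1, and CE replicate 1 for Gsn.

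Cldn11 was at 188, 212 and 213 CPM in CP and 165, 156 and 167 in CE (DESeq2 FDR 0.0187). Gjb1, the gap junction protein connexin 32, was at 15.6, 16.5 and 15.7 CPM in CP and 13.1, 11.2 and 9.47 in CE (DESeq2 FDR 0.0423). Mal was at 318, 324 and 324 CPM in CP and 287, 262 and 255 in CE (DESeq2 FDR 0.0504). These differences were between -0.26 and -0.50 on the log2 scale.

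Cnp was at 422, 468 and 481 CPM in CP and 392, 361 and 357 in CE (DESeq2 FDR 0.0423). The DESeq2 calls also held Mbp, Mog and Ugt8a, whose library values follow by role. The 9 striatal projection neuron genes summed to 2834 CPM in CP replicate 5 and 687 in CP replicate 2, where CP replicate 6 held 212 and the CE libraries 185 to 327 CPM, and the median of the members without CP replicate 5 was -0.30 against -0.33 with it. The choroid plexus list, whose tissue also makes Trf and Gsn, summed to 2696, 2825 and 41.9 CPM in CP and 35.1 to 1644 CPM in CE. The part of these neighbouring cells in the result was not tested.

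In the VS after chronic ethanol, 31 of 33 members were lower, Pdgfra and Gpr17 being the exceptions, with a median of -0.41 against -0.0068 over all genes. By edgeR 20 members had an unadjusted p under 0.05, all lower, beside 5.46% of all genes, and DESeq2 called 7, all lower, beside 1.01%.

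Plekhh1 was at 50.3, 50.7 and 56.9 CPM in CP and 36.6, 38.9 and 31.7 in CE (log2 fold change -0.56 ± 0.11 SE, DESeq2 FDR 0.0065, edgeR FDR 0.238). Lpar1, a receptor for lysophosphatidic acid, was at 32.7, 36.8 and 37.6 CPM in CP and 22.2, 28.1 and 19.5 in CE (log2 fold change -0.61 ± 0.14 SE, DESeq2 FDR 0.0277, edgeR FDR 0.277). Gjb1 was at 15.7, 14.5 and 16.6 CPM in CP and 9.14, 11.8 and 6.32 in CE (log2 fold change -0.77 ± 0.22 SE, DESeq2 FDR 0.0817, edgeR FDR 0.337). CE replicate 6 was the lowest library in all 3 genes.

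Trf was at 274, 329 and 418 CPM in CP and 224, 259 and 181 in CE (log2 fold change -0.62 ± 0.17 SE, DESeq2 FDR 0.027, edgeR FDR 0.326). Bcas1 was at 152, 187 and 236 CPM in CP and 132, 152 and 102 in CE (log2 fold change -0.58 ± 0.18 SE, DESeq2 FDR 0.0768, edgeR FDR 0.365). CP replicate 6 was the highest saline library in both, and in it the choroid plexus list summed to 3031 CPM, where the CE libraries held 35.7 to 42.00 CPM. Trf is also made by choroid plexus. The log2 fold change of Trf was -0.44 without CP replicate 6, against -0.62 with it. That of Bcas1 moved in the same way, to -0.40 without this library from -0.58 with it. The part of the choroid plexus in these values was not tested. DESeq2 also called Ugt8a and Myrf. Without the filter on low counts edgeR called 12 members, beside 1.88% of all genes, and without CP replicate 5 it called 2, beside 3.08%.

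In the vHPC after chronic ethanol all 33 members were higher, with a median of 0.60 against 0.0068 over all genes. By edgeR 19 had an unadjusted p under 0.05, all higher, beside 5.11% of all genes, and the groups did not overlap in 4 members, beside 7.48%. DESeq2 called Gsn and Mog, beside 0.702% of all genes. Gsn was at 49.95, 62.03 and 42.2 CPM in CP and 71.1, 127 and 78.4 in CE (log2 fold change 0.84 ± 0.21 SE, DESeq2 FDR 0.0145, edgeR FDR 0.308). The choroid plexus list moved with the groups here, from 27.7 to 209 CPM in CP to 901 to 3212 CPM in CE, with 8 of 8 genes higher and 5 called by edgeR, and Gsn, Trf and Car2 are made there too. Its part in these values was not tested. Without the filter on low counts edgeR called 25 members, beside 2.66% of all genes. The median of the members was 0.27 without CE replicate 5 and 0.86 without CP replicate 3.

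In the DS after chronic ethanol all 33 members were lower, with a median of -0.32 against -0.0026 over all genes, 4 unadjusted edgeR p under 0.05 (beside 3.93% of all genes) and no call by either tool, where DESeq2 called 0.776% of all genes. CE replicates 1 and 5 lay close to the 2 saline libraries while CE replicates 4 and 6 lay below them. The choroid plexus list split these libraries in the same way, with 1931 and 7253 CPM in CP and 3084, 26.2, 2931 and 22.1 in CE, and its part in the result was not tested. In the CTX after chronic ethanol 31 members were higher, with a median of 0.22 against -0.0054, and neither tool called a member, where DESeq2 called 0.608% of all genes. Mal alone had an unadjusted edgeR p under 0.05, beside 4.31% of all genes. CP replicate 3 had the lowest structural genes of the CTX, and without it the median was 0.042.

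The precursor gene Pdgfra was called by neither tool in any region or paradigm. In the CTX, Pdgfra was at 37.4, 35.2 and 34.04 CPM in AP and 34.5, 41.9 and 39.7 in AE, and at 45.9, 34.7 and 33.5 in CP and 32.1, 35.7 and 33.7 in CE. The dHPC held Pdgfra at 48.1, 51.1 and 52.4 CPM in AP against 50.9, 49.3, 50.8 and 50.9 in AE, and at 46.4, 47.5 and 57.5 in CP against 49.7, 52.8 and 45.9 in CE. The AE and AP values of the dHPC lay within 48.1 to 52.4 CPM. Pdgfra in the vHPC was at 49.3, 54.4 and 59.03 CPM in AP and 57.2, 56.2 and 50.99 in AE, then 48.5, 43.5 and 44.2 in CP and 56.1, 50.8 and 51.9 in CE. For Pdgfra in the DS, AP had 38.99, 39.9 and 43.4 CPM and AE 48.1, 45.4 and 49.9, while CP had 51.2 and 40.05 and CE 47.3, 40.8, 51.8 and 38.9. VS levels of Pdgfra were 49.4, 55.1 and 48.2 CPM in AP and 45.5, 61.5 and 67.9 in AE after 1 day, and 46.5, 61.7 and 47.3 in CP and 58.5, 61.2 and 55.2 in CE after 10 days. Every AE library of the DS and every CE library of the vHPC lay above its saline group (log2 fold change 0.23 ± 0.08 SE, edgeR FDR 0.185; log2 fold change 0.22 ± 0.10 SE, edgeR FDR 0.522), and neither passed the threshold. Over the 12 or 13 libraries of a region its SD was 0.086 to 0.19 on the log2 scale. The 14 further precursor genes (such as Cspg4, Vcan and Sox6) had medians from -0.18 to 0.039 over the 10 comparisons, and edgeR called 3 of them, all lower, in the acute DS, beside 3.10% of all genes, and none in the other 9.

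Among the lineage factors, Olig2 and Myrf took different courses in the acute CTX, although the difference between them was not tested. In the CTX, Olig2 was at 19.8, 16.7 and 13.2 CPM in AP and 15.1, 13.4 and 12.8 in AE, and at 14.1, 18.6 and 14.8 in CP and 16.03, 17.7 and 12.97 in CE. The dHPC held Olig2 at 32.6, 32.02 and 28.6 CPM in AP against 24.2, 25.4, 23.1 and 25.6 in AE, and at 26.2, 29.5 and 32.9 in CP against 24.8, 24.2 and 20.6 in CE. Olig2 in the vHPC was at 39.2, 30.4 and 18.5 CPM in AP and 20.9, 25.9 and 15.99 in AE, then 21.1, 23.4 and 24.3 in CP and 24.5, 32.4 and 17.4 in CE. In the CTX the groups of Olig2 overlapped in both paradigms, and in the dHPC they separated in both, with ethanol lower. For Olig2 in the DS, AP had 29.2, 24.2 and 23.9 CPM and AE 20.8, 19.1 and 21.6, while CP had 25.7 and 30.9 and CE 29.1, 21.7, 30.00 and 14.2. VS levels of Olig2 were 26.8, 25.8 and 23.5 CPM in AP and 20.9, 29.2 and 27.5 in AE after 1 day, and 21.7, 35.8 and 30.8 in CP and 26.3, 27.3 and 16.8 in CE after 10 days. Olig2 was lower in every AE than every AP library of the DS (log2 fold change -0.32 ± 0.11 SE, edgeR FDR 0.173) and was called by edgeR in no comparison.

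Myrf is the membrane-bound factor that switches on myelin genes. In the CTX, Myrf was at 25.5, 23.9 and 27.2 CPM in AP and 34.2, 35.95 and 29.97 in AE, and at 18.2, 35.3 and 26.6 in CP and 30.8, 33.1 and 22.7 in CE. The dHPC held Myrf at 92.3, 102 and 96.8 CPM in AP against 83.2, 91.01, 102 and 101 in AE, and at 67.5, 84.7 and 80.8 in CP against 68.1, 68.5 and 59.4 in CE. The acute CTX was the 1 comparison in which Myrf was called by edgeR. Myrf in the vHPC was at 116, 98.97 and 36.2 CPM in AP and 66.8, 108 and 55.5 in AE, then 54.1, 77.01 and 53.6 in CP and 76.8, 116 and 65.8 in CE. For Myrf in the DS, AP had 76.4, 71.96 and 88.1 CPM and AE 68.2, 67.7 and 78.02, while CP had 84.4 and 88.3 and CE 79.4, 63.9, 84.5 and 45.7. VS levels of Myrf were 46.3, 54.9 and 59.96 CPM in AP and 55.8, 79.5 and 86.3 in AE after 1 day, and 59.9, 68.97 and 69.6 in CP and 49.4, 55.04 and 40.5 in CE after 10 days. In the chronic VS every CE library lay below every CP library (log2 fold change -0.45 ± 0.12 SE, DESeq2 FDR 0.0867, edgeR FDR 0.326). Sox10, Olig1 and Nkx6-2 were not called in any comparison, with log2 fold changes from -0.50 to 0.63.

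The genes of maturing cells did not move as 1 group. Gpr17, a G protein-coupled receptor of premyelinating cells, was called by neither tool in any comparison. In the CTX, Gpr17 was at 35.8, 35.6 and 33.05 CPM in AP and 38.5, 43.7 and 34.6 in AE, and at 28.97, 30.5 and 27.6 in CP and 30.4, 28.9 and 48.8 in CE. The dHPC held Gpr17 at 55.4, 57.3 and 53.9 CPM in AP against 62.7, 55.3, 60.1 and 58.5 in AE, and at 42.05, 47.1 and 50.9 in CP against 49.2, 45.8 and 58.3 in CE. In neither region did the 2 groups of a paradigm separate. Gpr17 in the vHPC was at 53.4, 55.5 and 44.2 CPM in AP and 55.8, 64.9 and 46.3 in AE, then 46.03, 40.2 and 42.7 in CP and 44.7, 45.7 and 64.1 in CE. For Gpr17 in the DS, AP had 53.5, 53.9 and 53.7 CPM and AE 47.2, 45.4 and 46.7, while CP had 48.8 and 42.9 and CE 46.3, 44.2, 42.3 and 51.1. VS levels of Gpr17 were 51.8, 55.2 and 52.3 CPM in AP and 62.4, 70.9 and 69.6 in AE after 1 day, and 45.5, 57.7 and 50.4 in CP and 50.5, 65.5 and 68.5 in CE after 10 days. Every AE library was below every AP library in the DS (log2 fold change -0.21 ± 0.07 SE, edgeR FDR 0.16) and above it in the VS (log2 fold change 0.35 ± 0.10 SE, edgeR FDR 0.428).

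Enpp6 was low and varied more. In the CTX, Enpp6 was at 3.39, 3.24 and 3.14 CPM in AP and 3.71, 4.42 and 2.67 in AE, and at 1.94, 2.94 and 3.09 in CP and 4.51, 3.78 and 2.298 in CE. The dHPC held Enpp6 at 16.9, 20.7 and 17.1 CPM in AP against 12.5, 11.9, 15.5 and 12.7 in AE, and at 11.3, 15.6 and 13.7 in CP against 10.8, 9.69 and 7.96 in CE. In the dHPC all ethanol libraries lay below their saline group in both paradigms. Enpp6 in the vHPC was at 16.9, 12.02 and 3.15 CPM in AP and 5.99, 11.6 and 6.17 in AE, then 5.35, 12.5 and 4.803 in CP and 10.7, 20.1 and 10.7 in CE. For Enpp6 in the DS, AP had 16.1, 15.8 and 17.4 CPM and AE 14.9, 16.5 and 14.6, while CP had 17.2 and 25.8 and CE 20.2, 16.8, 16.8 and 14.5. VS levels of Enpp6 were 8.99, 9.66 and 7.59 CPM in AP and 8.07, 9.72 and 9.203 in AE after 1 day, and 13.2, 11.2 and 15.02 in CP and 7.69, 12.2 and 7.13 in CE after 10 days. The lowest library of the vHPC, AP replicate 6, was also the lowest for Mbp and Mog.

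The 9 structural genes moved together from library to library, and did so within saline groups as well. Mbp shows their range. In the CTX, Mbp was at 983, 874 and 949.9 CPM in AP and 1294, 1256 and 978 in AE, and at 498, 1181 and 965 in CP and 1149, 1432 and 985 in CE. The dHPC held Mbp at 3739.5, 4239 and 3976 CPM in AP against 3073, 3398, 4249.98 and 3555 in AE, and at 2839, 3418 and 3148 in CP against 2656, 2367 and 2266 in CE. CP replicate 3 of the CTX was the low library of that region, and CE libraries were the 3 lowest of the dHPC. Mbp in the vHPC was at 3421, 2904 and 1059.8 CPM in AP and 1577, 3219 and 1231 in AE, then 1387, 2396 and 1384 in CP and 2174, 3844 and 1891 in CE. For Mbp in the DS, AP had 3255, 3048 and 3857 CPM and AE 2849.7, 3041 and 3151, while CP had 3637 and 3918 and CE 3402, 2759, 3528 and 2420.3. VS levels of Mbp were 2053, 2093 and 2301 CPM in AP and 2055, 2933 and 2842 in AE after 1 day, and 2281, 2530.2 and 3247 in CP and 2006, 2356 and 1728 in CE after 10 days. In the vHPC, the 3 AP libraries alone spanned more than the difference between any 2 group means of that region. In the CTX, Mog was at 21.3, 19.4 and 20.7 CPM in AP and 30.5, 32.2 and 27.2 in AE, and at 12.2, 25.3 and 24.7 in CP and 25.8, 31.6 and 21.6 in CE. The dHPC held Mog at 90.5, 111 and 101 CPM in AP against 73.7, 77.6, 112.8 and 91.8 in AE, and at 74.4, 80.5 and 82.1 in CP against 68.5, 63.9 and 57.5 in CE. Mog separated AE from AP in the CTX and CE from CP in the dHPC. Mog in the vHPC was at 92.5, 73.8 and 26.9 CPM in AP and 44.4, 86.2 and 37.4 in AE, then 39.6, 63.1 and 32.8 in CP and 69.3, 107 and 59.2 in CE. For Mog in the DS, AP had 87.7, 99.9 and 91.7 CPM and AE 81.8, 94.4 and 94.2, while CP had 96.7 and 110.4 and CE 102, 67.8, 105 and 72.4. VS levels of Mog were 60.6, 57.2 and 56.7 CPM in AP and 52.8, 79.8 and 84.8 in AE after 1 day, and 57.9, 76.7 and 89.4 in CP and 57.03, 67.9 and 47.4 in CE after 10 days. In the chronic vHPC its groups overlapped and DESeq2 called it (log2 fold change 0.80 ± 0.26 SE, DESeq2 FDR 0.0989, edgeR FDR 0.415).

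Each library was also summarised by the median of the 9 structural genes, as log2(CPM + 0.5) relative to the mean of the saline libraries of its region. In the vHPC that median was 0.91, 0.61 and -1.01 in AP, -0.22, 0.79 and -0.46 in AE, -0.33, 0.30 and -0.52 in CP and 0.38, 1.10 and 0.16 in CE. In the dHPC it was -0.26, -0.10 and -0.11 in CP and -0.38, -0.48 and -0.63 in CE. CE separated from CP in the dHPC. In the vHPC AP and AE overlapped, with AP reaching both above and below AE, and CP and CE overlapped as well. The SD of a structural gene over the libraries of a region had a median of 0.67 in the vHPC, and 0.12 once the median of the other structural genes was subtracted from it. For Pdgfra the SD was 0.14 before and 0.67 after the same step, so that Pdgfra did not share the variation of the structural genes.

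**Figure D4:**
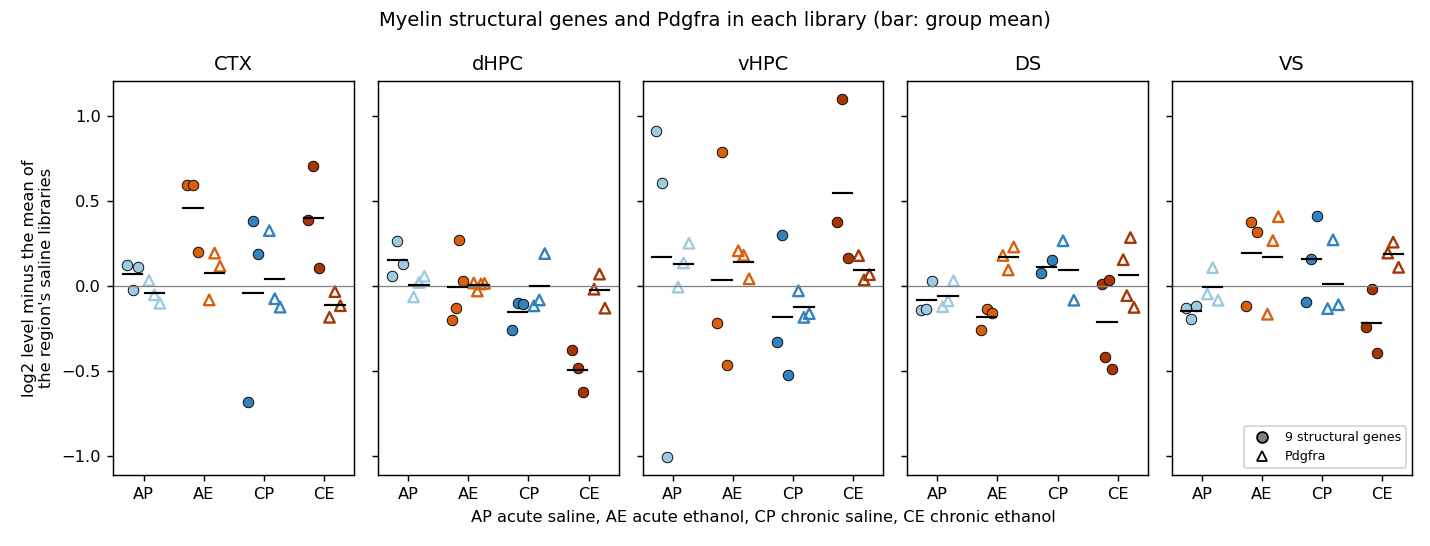
Level of the 9 structural genes (median, filled circles) and of Pdgfra (open triangles) in each library, as log2(CPM + 0.5) minus the mean of the saline libraries of the region, with bars at group means. The circles range from -1.01 to 1.10 in the vHPC, whereas the triangles stay between -0.19 and 0.41 in all regions.

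Ugt8a was the member called by edgeR in 2 regions. In the CTX, Ugt8a was at 22.3, 18.4 and 16.6 CPM in AP and 24.3, 19.8 and 17.02 in AE, and at 12.8, 22.2 and 19.8 in CP and 21.3, 25.04 and 14.8 in CE. The dHPC held Ugt8a at 80.6, 86.1 and 77.01 CPM in AP against 55.7, 50.4, 60.2 and 47.4 in AE, and at 47.6, 65.5 and 61.9 in CP against 41.8, 47.1 and 42.5 in CE. The acute difference in the dHPC exceeded the spread of both groups, and the CTX groups overlapped in both paradigms. Ugt8a in the vHPC was at 97.7, 70.2 and 16.6 CPM in AP and 27.6, 44.98 and 17.8 in AE, then 22.6, 50.3 and 27.4 in CP and 50.6, 71.8 and 39.3 in CE. For Ugt8a in the DS, AP had 78.7, 66.4 and 69.8 CPM and AE 46.1, 50.3 and 54.96, while CP had 86.99 and 86.1 and CE 75.6, 58.1, 79.02 and 55.2. VS levels of Ugt8a were 47.4, 43.6 and 43.6 CPM in AP and 38.8, 51.02 and 39.5 in AE after 1 day, and 50.04, 59.99 and 62.5 in CP and 36.4, 41.8 and 33.9 in CE after 10 days. In the vHPC AP replicate 6 was lower than every AE library, so the log2 fold change of -1.03 carried an SE of 0.551. In the chronic VS the groups did not overlap (log2 fold change -0.62 ± 0.12 SE, DESeq2 FDR 0.00455, edgeR FDR 0.238). Ugt8a lies on the minus strand at chr3:125658920-125732268 of GRCm39 (ENSMUSG00000032854), with no exon of another gene over its exons in GENCODE vM39.

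Set against the structural genes of the same library, Ugt8a had a lower group mean after acute ethanol in every region. This pattern was noticed after the values had been seen and is given as a description, with no test, and the 4 AE mice recur among the regions. The level of Ugt8a minus the structural median was 0.17, -0.081 and -0.17 in AP and -0.48, -0.48 and -0.32 in AE of the DS. It was 0.037, -0.023 and -0.096 in AP and -0.26, -0.37 and -0.67 in AE of the VS. In both striatal regions the AE libraries were the lower 3 of 6. In the dHPC the values were 0.18, 0.063 and 0.037 in AP and -0.097, -0.31, -0.45 and -0.56 in AE. In the vHPC they were 0.40, 0.23 and -0.21 in AP and -0.28, -0.59 and -0.65 in AE. The hippocampal groups did not overlap either, although the absolute level in the vHPC had overlapped. In the CTX, where the structural genes were higher after ethanol, the values were 0.15, 0.024 and -0.25 in AP and -0.20, -0.48 and -0.31 in AE, and AP replicate 6 overlapped the AE group. After chronic ethanol the values were 0.079, 0.082 and -0.11 in CP and -0.23, -0.26 and -0.18 in CE of the VS, where the groups did not overlap, and 0.097 and 0.005 in CP and -0.041, 0.0095, -0.0018 and 0.0065 in CE of the DS, where they did. The log2 fold change of Ugt8a minus the structural median was between -0.76 and -0.26 after acute ethanol and between -0.22 and -0.049 after chronic ethanol.

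Beside Ugt8a, 11 members lay below the structural median in all 5 acute comparisons: Olig2, Enpp6, Lpar1, Ermn, Gal3st1, Fa2h, Aspa, Gjb1, Gjc3, Qdpr and Car2. The difference of Car2 from it was between -0.47 and -0.22 and that of Aspa between -0.68 and -0.052. Mal, Mobp and Hapln2 lay above the structural median in all 5, Mal by 0.12 to 0.33.

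**Figure D5:**
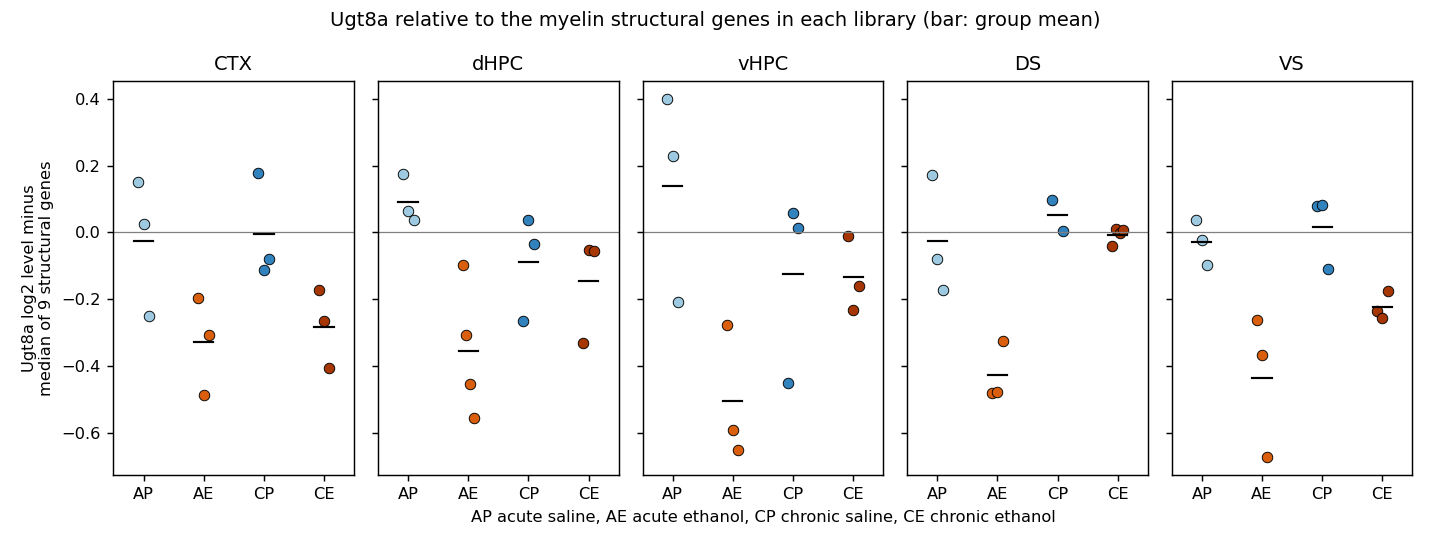
Level of Ugt8a minus the median of the 9 structural genes in each library, on the log2 scale and relative to the saline libraries of the region, with bars at group means. The AE points lie below all AP points in the dHPC, vHPC, DS and VS, and the CTX groups overlap through AP replicate 6.

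Gjc3, Gal3st1, Ndrg1, Ermn, Sox10, Olig1, Nkx6-2, Gpr17 and Pdgfra were called by neither tool in any comparison. Gjb1, with Gjc3 the gap junction pair of the list, had a log2 fold change from -0.77 in the chronic VS to 0.82 in the chronic vHPC. Ermn, a cytoskeletal protein of the outer sheath, ranged from -0.74 in the acute vHPC to 0.94 in the chronic vHPC. Exons of 20 of the 33 members overlap an exon on the other strand in GENCODE vM39, Mbp, Mog, Mag and Qdpr among them, and the CTX and dHPC libraries keep no strand, so reads of such partners cannot be told apart there. Ugt8a, Fa2h, Car2, Mal, Cldn11 and Gsn have no such partner.

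A list of 22 further genes of mature oligodendrocytes (such as Pllp and Adamts4) had a median of the same sign as that of the members in each of the 10 comparisons. In the acute CTX 19 of 22 were higher, with a median of 0.19, and 1 was called by edgeR, beside 1.99% of all genes. In the acute DS 19 of 22 were lower, with a median of -0.23, and 4 were called, beside 5.15%. In the chronic dHPC all 22 were lower, with a median of -0.32, and in the chronic vHPC all 22 were higher, with a median of 0.58, without an edgeR call in either. The 14 precursor genes had medians of 0.0021, -0.18, -0.034 and -0.016 in the same 4 comparisons.

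The effect of chronic ethanol was compared with that of acute ethanol by the interaction of treatment with paradigm, and no member was called by either tool in any region, where edgeR called 0.00% of all genes in each region and DESeq2 0.00745% to 2.02%. In the VS all 33 interaction terms were below 0, with a median of -0.65 against -0.00072 over all genes, and 25 had an unadjusted edgeR p under 0.05, beside 2.96% of all genes. Lpar1 had the lowest edgeR p of the members there (log2 interaction -0.86 ± 0.21 SE, edgeR FDR 0.971). In the vHPC all 33 terms were above 0, with a median of 0.91, and 6 had an unadjusted p under 0.05, beside 5.50% of all genes. The dHPC, DS and CTX had 4, 1 and 0 members under 0.05, beside 4.48%, 4.16% and 8.19% of all genes.

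Genes of other cells varied between the groups of several comparisons. The regions carried their own neurons: the 5 pallial excitatory neuron genes summed to 1155 CPM or more in every CTX, dHPC and vHPC library and to at most 805 CPM in every DS and VS library used. The 4 Schwann cell genes summed to 0.13 to 4.51 CPM in every library used, so that peripheral myelin was near 0. In the striatum all 5 pallial excitatory neuron genes were lower with ethanol. They summed to 362 to 462 CPM in AP and 14.2 to 97.1 in AE of the DS, and to 394 to 558 in CP and 17.7 to 146 in CE of the DS. In the VS they summed to 322 to 805 in AP and 14.2 to 119 in AE, where 32 members were higher, and to 51.1 to 711 in CP and 9.72 to 68.9 in CE, where 31 were lower. The acute DS, with 4 members called, also had 9 of 9 striatal projection neuron genes higher, 7 of them called. In the acute CTX 8 of 9 striatal projection neuron genes were lower, with a median of -0.32 and 3 called, while the sum of the pallial list was 1595 to 1733 CPM in AP and 1642 to 1718 in AE. In the acute vHPC thalamic neuron genes summed to 79.8 to 593 CPM in AP and 28.1 to 149 in AE. The microglia list had medians from -0.10 to 0.15 over the 10 comparisons. The part of these lists in the values of the members was not tested.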

How the data were processed

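The deposited table held raw counts per gene in 62 libraries, and only these counts and the exon lengths were used. Per the study's methods, the authors used Cutadapt 5.0 for adapter trimming, STAR 2.7.10a for alignment to GRCm39 and featureCounts 2.0.6 for counting over exons, with an annotation that the methods call RefSeq and whose file name and gene identifiers are of the Ensembl form, with the reverse-stranded setting in all libraries, and with multimapping and overlapping reads counted, so close copies and overlapping genes share reads. The deposited transcript counts were not used.
Counts were normalised by TMM over the libraries of each fit, and a gene entered when 2 or more libraries of 1 group held 5 or more counts. Groups were compared with the quasi-likelihood F test of edgeR 4.0.16 (R 4.3.3), with Benjamini-Hochberg adjustment over all genes tested and an FDR threshold of 0.1. Each SE is the size of the edgeR log2 fold change divided by the square root of its F statistic. It is not a fitted standard error and does not belong to the DESeq2 FDRs printed beside it. The CPM values of members and lists use effective library sizes from TMM over all libraries used of a region. The shares of all genes whose groups did not overlap use TMM over the comparison alone. DESeq2 1.42.0, other filters, scalings and fits, and leaving out each library were alternatives. The fits were tested on simulated data. Replicate numbers name mice, 4 per condition and 16 in all, so replicates are separate animals and p-values cover their spread.
The annotation of overlapping exons came from GENCODE vM39. Library values are given for members called by edgeR or DESeq2 (the 12 with the lowest edgeR p where more were called) and, in every region, for Pdgfra, Gpr17, Enpp6, Olig2, Myrf, Mbp, Mog and Ugt8a. The members and lists were chosen with earlier results of these data known.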

Additional observations from a re-analysis of the deposited data

Results flagged for a closer look

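Among the 2 groups of 4 libraries, 66 checks of a member found 3 libraries standing apart from the other 3 of their group, where chance alone sets apart about 1 in 20. All 3 were in AE of the dHPC: Pdgfra at 49.3 CPM in replicate 3, Sox10 at 60.4 CPM in replicate 4 and Aspa at 20.0 CPM in replicate 4.

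Several members had groups that did not overlap, in opposite directions in different regions, narrowly so for Cldn11 in the CTX. In none of these was the difference between regions tested. Among all genes the acute groups did not overlap in 8.85% (CTX, higher), 5.90% (VS, higher), 4.42% (dHPC, lower) and 10.9% (DS, lower). The chronic shares were 7.18% (dHPC, lower) and 7.48% (vHPC, higher). After acute ethanol, Cldn11 had a log2 fold change of 0.33 in the CTX and 0.36 in the VS but -0.22 in the DS. Opalin had 0.39 in the CTX and -0.45 in the dHPC. Fa2h had 0.32 in the VS, -0.38 in the dHPC and -0.30 in the DS. Aspa had 0.30 in the CTX, -0.49 in the dHPC and -0.33 in the DS. Qdpr had 0.13 in the CTX, -0.21 in the dHPC and -0.35 in the DS. After chronic ethanol, Mal had -0.26 in the dHPC and 0.80 in the vHPC, and Gsn had -0.39 and 0.84 in the same regions.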

How the results depend on the processing

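The direction of the median log2 fold change of the members was kept under every alternative run, in all 10 comparisons, whereas the number of members called was not. The causes of these shifts were not tested. Without the filter on low counts edgeR called more members in most comparisons. Brackets hold the reported count and the share of all genes called without the filter. The acute CTX had 16 (9, 3.96%), the acute dHPC 7 (1, 0.669%), the acute DS 5 (4, 5.81%) and the acute VS 6 (0, 1.78%). The chronic CTX had 1 (0, 0.281%) and the chronic vHPC 25 (0, 2.66%). The chronic DS had 2 (0, 1.60%) and the chronic VS 12 (0, 1.88%). The acute vHPC and the chronic dHPC stayed at 0, beside 0.881% and 0.00%. Interactions numbered 23 in the vHPC (0, 2.7%) and 18 in the VS (0, 0.597%). DESeq2 called 7 in the acute dHPC, 13 in the chronic dHPC, 2 in the chronic vHPC and 7 in the chronic VS. With the 4 groups of a region in 1 fit no member was called in the acute CTX, dHPC or DS, giving 0 in place of 9, 1 and 4. Over all genes these fits called 0.00%, 0.0186% and 1.34%. Leaving out 1 library at a time gave these ranges of calls, with the range of the share over all genes in brackets. The acute CTX had 3 to 12 (0.165% to 3.10%) and the acute dHPC 0 to 5 (0.00% to 0.324%). The acute vHPC had 0 to 2 (0.00% to 1.54%) and the acute DS 2 to 4 (3.00% to 5.37%). In the acute VS there were 0 to 13 (0.00% to 1.48%). The chronic vHPC had 0 to 1 (0.00% to 1.87%) and the chronic VS 0 to 2 (0.00% to 3.08%). Interactions in the vHPC numbered 0 to 4 (0.00% to 2.12%). With CP replicate 2 the median of the chronic DS was -0.039 in place of -0.32. Replicate numbers name different mice, and same-numbered libraries did not deviate together (correlations from -0.16 to 0.065), so they do not pair the samples. With the replicate number as a block, 17 members were called in the acute CTX, beside 3.05% of all genes. There was 1 call in the acute dHPC (0.0572%) and 0 in the chronic CTX (0.558%), with medians of 0.35, -0.14 and 0.038. A library whose number occurs in 1 group alone adds nothing to the difference in such a fit. This held for AP replicate 6 and AE replicate 5 in the acute CTX and for AE replicate 3 in the acute dHPC. In the chronic CTX it held for CP replicate 3 and CE replicate 1. These fits thus rest on fewer libraries than the others. In the other 7 comparisons no paired analysis was possible because the groups shared fewer than 2 numbers. Every member had 44 or more counts in each library used, and with 2 to 4 mice a group the spread between mice was estimated from few animals.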
